A study of Mus musculus with 7 samples.

Results

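Markers of 2 non-parenchymal liver cell types were followed in the transcriptome of primary hepatocytes, to show how far RNA of hepatic stellate cells and of liver sinusoidal endothelial cells varied between libraries and between genotypes. The 10 genes were taken from the table of read counts by their symbols. *Des*, *Dcn*, *Lrat*, *Reln* and *Pdgfrb* represented stellate cells, and *Stab1*, *Stab2*, *Kdr*, *Pecam1* and *Clec4g* represented sinusoidal endothelial cells. All 10 had a row of their own among the 14819 rows of the table and all 10 passed the filter on low counts.

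Hepatocytes came from male WT mice (n = 4 libraries) and from male whole-body *Wdr6* knockout mice (WDR6-WKO, n = 3 libraries). The labels number the replicates and do not name the mouse behind each. In the knockout mice, exon 2 of *Wdr6* was deleted with CRISPR–Cas9. The deletion is a whole-body one, so that it also covers any stellate or endothelial cells in the WDR6-WKO preparations. In both groups, livers were perfused with collagenase and the isolated cells were incubated overnight without further treatment before RNA extraction. The methods give a general age for the study's mice and none specific to these hepatocyte donors, and p-values measure the spread between these 7 samples.

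Stellate cells lie between the hepatocytes and the sinusoidal endothelium. In a resting liver they store vitamin A as retinyl esters, and on injury or in culture they become contractile, matrix-producing cells. Sinusoidal endothelial cells line the sinusoids as a fenestrated wall without a continuous basement membrane and take up waste macromolecules through scavenger receptors. Collagenase perfusion releases both cell types together with hepatocytes, so their RNA can be present in a hepatocyte preparation.

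The windows around the start sites of *Des*, *Stab1* and *Stab2* are shown because *Des* was one of the members whose libraries separated by genotype, while *Stab1* and *Stab2* are paralogs that were both highest in the same library. Each runs from 250 bases before to 50 bases after the RefSeq start site in GRCm38.p6. In the *Des* window (chr1:75360042-75360341, plus strand), capitals mark the E-box CAGCTG, which reads the same on both strands, occurred 1 time and is found in 16.3% of 32851 mouse promoters of the same length. In the windows of *Stab1* (chr14:31168592-31168891, minus strand) and *Stab2* (chr10:87007893-87008192, minus strand), capitals mark the ETS core AGGAA or its reverse complement TTCCT. That core occurred 3 times in each of these windows and is found in 66.7% of the promoters.
Des: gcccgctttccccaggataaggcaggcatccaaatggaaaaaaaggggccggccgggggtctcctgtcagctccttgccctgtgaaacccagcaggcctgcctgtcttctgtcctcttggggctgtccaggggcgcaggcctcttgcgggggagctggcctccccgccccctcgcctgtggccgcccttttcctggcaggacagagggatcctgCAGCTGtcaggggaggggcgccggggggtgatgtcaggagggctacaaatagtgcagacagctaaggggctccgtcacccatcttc
Stab1: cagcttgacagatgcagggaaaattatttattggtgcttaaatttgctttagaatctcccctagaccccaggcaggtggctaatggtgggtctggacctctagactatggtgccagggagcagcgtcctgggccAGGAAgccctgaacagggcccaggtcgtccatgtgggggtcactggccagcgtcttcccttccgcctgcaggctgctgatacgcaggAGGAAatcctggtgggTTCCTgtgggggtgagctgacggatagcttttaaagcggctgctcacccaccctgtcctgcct
Stab2: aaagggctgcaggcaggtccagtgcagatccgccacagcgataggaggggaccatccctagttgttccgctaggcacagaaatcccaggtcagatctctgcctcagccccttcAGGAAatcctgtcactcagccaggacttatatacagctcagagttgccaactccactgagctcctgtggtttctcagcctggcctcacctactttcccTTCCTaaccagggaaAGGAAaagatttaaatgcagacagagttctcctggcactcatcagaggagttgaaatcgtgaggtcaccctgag
These matches describe the letters only. Windows of 7 members were searched (*Des*, *Lrat*, *Reln*, *Stab1*, *Stab2*, *Kdr* and *Clec4g*), and that of *Des* alone held CAGCTG. Other forms of the E-box were not searched. The ETS core was not particular to *Stab1* and *Stab2*. It occurred 4 times in the *Clec4g* window, 1 time each in those of *Des* (not marked above), *Lrat* and *Kdr*, and 0 times in that of *Reln*.

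Libraries held 17816913 to 23668940 counted reads. Levels are CPM, read counts relative to a common library total after TMM scaling, and a gene was called when the adjusted p of edgeR's quasi-likelihood test was under 0.05 over the 14779 genes tested. *Wdr6* itself was at 40.6 to 49.0 CPM in WT and at 2.23 to 2.58 CPM in WDR6-WKO. WDR6-WKO replicate 3 stood apart from the others of its group, with a chi-square per gene of 14.3 and 16.0 in its pairs, against 5.14 between replicates 1 and 2, so results are also given without it where it mattered. Without it, 2150 of all genes were called higher and 2083 lower, against 983 and 914 with all libraries. Calls of single genes and lists in that setting are to be read beside these totals.

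Reads of all 10 markers were present in every library, and the cells they came from were not identified. Per kilobase of annotated exon, the mean WT level was highest for *Dcn* at 15.2 CPM, followed by *Stab1* at 8.09, *Pecam1* at 6.74, *Pdgfrb* at 4.53, *Stab2* at 4.28, *Lrat* at 3.90, *Des* at 3.36, *Kdr* at 3.09, *Clec4g* at 0.949 and *Reln* at 0.787 CPM. The WT libraries of neighbours in this order overlapped for *Pdgfrb* and *Stab2*, *Stab2* and *Lrat*, *Lrat* and *Des*, *Des* and *Kdr*, and *Clec4g* and *Reln*. With the longest coding transcript as the length, *Dcn* stayed first, at 50.5 CPM per kilobase, but *Pecam1* at 12.2 stood above *Stab1* at 10.4. *Kdr* at 4.70 then stood above *Pdgfrb* at 4.58, *Stab2* at 4.55, *Des* at 4.17 and *Lrat* at 3.90. The middle of the order thus depends on the length used. On the exon scale *Dcn* reached 0.484% and *Reln* 0.0250% of the level of *Alb*, the serum albumin gene of hepatocytes.

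*Dcn* was the only member called between genotypes, higher in WDR6-WKO, and no member was called lower by edgeR, DESeq2 or limma-voom. At an unadjusted p under 0.05 in edgeR, 2 were higher (*Des* and *Dcn*) and 1 was lower (*Pdgfrb*), where 28.1% of all genes tested passed in either direction, 14.6% higher and 13.6% lower. The share of all genes tested that was called at the adjusted threshold was 12.8% in either direction, 6.65% higher and 6.18% lower, so 1 of 10 members is near the background. The median log2 fold change was -0.058 over the 10 members and 0.0051 over all genes tested. It was 0.18 over the 5 stellate markers, of which 3 had values above 0, and -0.13 over the 5 endothelial markers, of which 2 did. In bulk RNA, fewer cells of a type and less RNA per cell cannot be told apart.

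**Figure D1:**
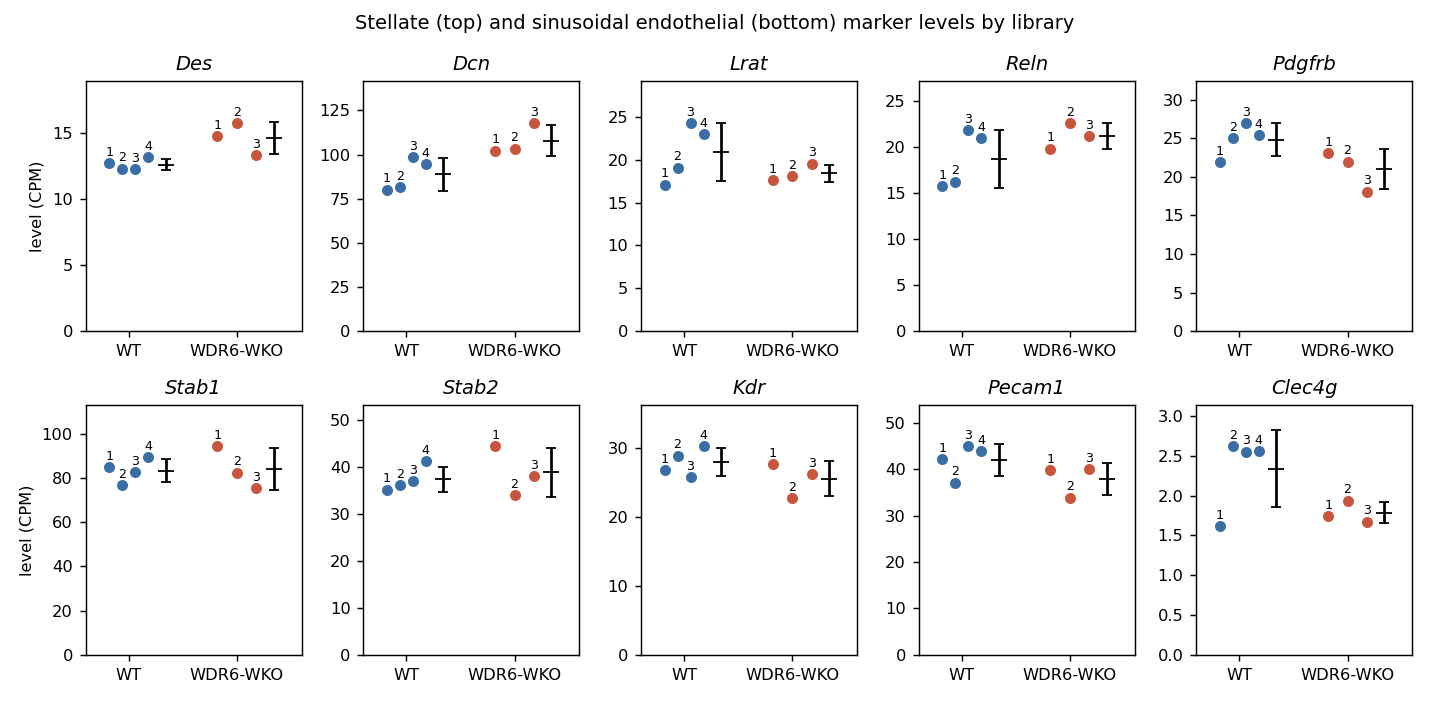
Levels of the 10 markers in CPM (vertical axes, from 0) in each WT (blue) and WDR6-WKO (red) library, numbered by replicate, with the mean and s.d. of each group as a bar. The points of *Des* and *Dcn* do not overlap between the groups, and those of the other 8 markers do.

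*Dcn* (chr10:97479609-97518143 in GRCm38, plus strand) encodes decorin, a small proteoglycan that binds collagen fibrils and TGF-beta. Its level was 80.2, 81.5, 98.8 and 94.7 CPM in WT replicates 1 to 4, and 102, 103 and 118 CPM in WDR6-WKO replicates 1 to 3. Every WDR6-WKO library was above every WT library, a separation that *Dcn* shared with *Des* and that 23.5% of all genes tested showed in either direction and 11.8% showed with WDR6-WKO higher. WT libraries averaged 88.8 ± 9.34 CPM (s.d., n = 4), against 108 ± 8.82 CPM (n = 3) for WDR6-WKO, a log2 fold change of 0.28 (s.e. 0.077, adjusted p = 0.0282), with a 95% interval of 1.08- to 1.36-fold. The exact two-sided permutation test gave p = 0.0571 for *Dcn*, above the smallest value of 0.0286 that 35 splits allow. The call was lost without WT replicate 1 (adjusted p = 0.0802), WT replicate 2 (0.0913), or WDR6-WKO replicate 1 (0.0509), 2 (0.0509) or 3 (0.0547), with log2 fold changes between 0.21 and 0.33 over all alternatives. A fold threshold of 0.35 on the log2 scale, used by the study for differentially expressed genes, left *Dcn* out.

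*Des* (chr1:75360329-75368579, plus strand) encodes desmin, the intermediate filament protein of muscle that also marks rodent stellate cells. It stood at 12.7, 12.3, 12.3 and 13.2 CPM in the WT libraries and at 14.8, 15.8 and 13.3 CPM in the WDR6-WKO libraries. The groups did not overlap, although WDR6-WKO replicate 3 lay only just above the highest WT library. The WT coefficient of variation of 3.25% was smaller than the 6.40% that counting error alone gives at these counts. The log2 fold change was 0.22 (s.e. 0.092), which did not pass the test (adjusted p = 0.138), and the exact permutation p was 0.0286, the smallest possible. Without WDR6-WKO replicate 3, *Des* passed at 0.27 (adjusted p = 0.0369) while *Dcn* did not. In that setting 2150 of all genes were called higher, against 983 with all libraries, so passing there was more common than in the main fit. Exons of *Des* overlap those of the antisense gene *Gm15179* by 220 bases, and since the strand setting of the counts is not given, reads of the pair cannot be separated there.

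*Lrat* (chr3:82892579-82903973, minus strand) encodes lecithin retinol acyltransferase, which forms the retinyl esters that stellate cells store. Its level was 17.1, 19.1, 24.3 and 23.0 CPM in WT and 17.6, 18.1 and 19.5 CPM in WDR6-WKO. The WDR6-WKO libraries lay within the wider WT range, and the log2 fold change of -0.18 (s.e. 0.11) did not pass (adjusted p = 0.304, 95% interval -0.42 to 0.05). Without WT replicate 3, its highest library, the value was -0.10.

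*Reln* (chr5:21884454-22344702, minus strand) encodes reelin, a secreted glycoprotein that signals through the receptors VLDLR and LRP8. It measured 15.8, 16.2, 21.8 and 20.9 CPM in WT and 19.8, 22.6 and 21.2 CPM in WDR6-WKO. WT replicates 1 and 2 were below all other libraries, while replicates 3 and 4 lay among those of WDR6-WKO. The difference was 0.18 on the log2 scale (s.e. 0.11, adjusted p = 0.317, 95% interval -0.06 to 0.42), with values of 0.11 without WT replicate 1 and 0.12 without WT replicate 2. Its exons overlap the antisense gene *Gm10475* by 246 bases.

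*Pdgfrb*, on chromosome 18, encodes the beta receptor for platelet-derived growth factor, which drives proliferation of stellate cells. Its level was 21.9, 25.0, 27.0 and 25.4 CPM in WT and 23.1, 22.0 and 18.1 CPM in WDR6-WKO. The lowest value was that of WDR6-WKO replicate 3, the library in which *Dcn* was highest. A log2 fold change of -0.23 (s.e. 0.096) had an interval without 0 (-0.44 to -0.03) but did not pass after adjustment (adjusted p = 0.125). Without WDR6-WKO replicate 3 it was -0.14 (adjusted p = 0.219).

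*Stab1* (chr14:31139013-31168641, minus strand) and *Stab2* (chr10:86841198-87008025, minus strand) encode stabilins, the large scavenger receptors of sinusoidal endothelium, of which the product of *Stab2* clears hyaluronan. *Stab1* was at 84.7, 76.7, 82.5 and 89.3 CPM in WT and at 94.2, 82.4 and 75.3 CPM in WDR6-WKO, so the highest and the lowest of the 7 values both belonged to WDR6-WKO. Its log2 fold change was 0.013 (s.e. 0.073, adjusted p = 0.933), with a 95% interval of 0.906- to 1.12-fold. *Stab2* was at 35.2, 36.1, 37.0 and 41.4 CPM in WT and at 44.5, 34.1 and 38.2 CPM in WDR6-WKO, where replicate 1 was again highest. It differed by 0.058 on the log2 scale (s.e. 0.087, adjusted p = 0.721), with an interval of 0.916- to 1.18-fold. Without WDR6-WKO replicate 1 the signs turned, to -0.083 for *Stab1* and -0.057 for *Stab2*, and without WT replicate 2 that of *Stab1* turned to -0.024. Exons of *Stab1* overlap those of *Nt5dc2* on the opposite strand by 112 bases, and those of *Stab2* overlap the antisense gene *Gm16268* by 141 bases.

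*Kdr* (chr5:75932827-75978458, minus strand) encodes VEGFR2, the main signalling receptor for vascular endothelial growth factor. Its level was 26.8, 28.9, 25.7 and 30.2 CPM in WT and 27.6, 22.7 and 26.2 CPM in WDR6-WKO. WDR6-WKO replicate 2 was the lowest library and the other two lay within the WT range (log2 fold change -0.13, s.e. 0.086, adjusted p = 0.354, 0.806- to 1.04-fold). *Pecam1* (chr11:106654217-106750628, minus strand), an adhesion molecule of endothelial cells in general, was at 42.2, 37.1, 44.9 and 43.8 CPM in WT and at 39.8, 33.9 and 39.9 CPM in WDR6-WKO. Replicate 2 was again the lowest of WDR6-WKO, and the difference of -0.15 (s.e. 0.080) did not pass (adjusted p = 0.236, 0.801- to 1.01-fold). Without WDR6-WKO replicate 2 the values were -0.051 for *Kdr* and -0.076 for *Pecam1*, and without WDR6-WKO replicate 1 that of *Kdr* was -0.20.

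*Clec4g* (chr8:3707064-3720651, minus strand) encodes LSECtin, a C-type lectin of sinusoidal endothelium. It was measured with few reads, with counts of 32, 50, 48 and 51 in WT and of 42, 41 and 30 in WDR6-WKO. These correspond to 1.61, 2.62, 2.55 and 2.56 CPM in WT and 1.75, 1.94 and 1.68 CPM in WDR6-WKO. WT replicate 1 lay below all WDR6-WKO libraries and the other WT libraries lay above them. The log2 fold change of -0.38 was the furthest from 0 among the members and had the largest error (s.e. 0.22, adjusted p = 0.276), with a 95% interval of 0.555- to 1.06-fold. Over all alternatives, each replicate left out included, the log2 fold change lay between -0.53 and -0.31, and *Clec4g* was called under none. Exons of *Clec4g* overlap those of the antisense gene *Gm16553* by 146 bases.

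**Figure D2:**
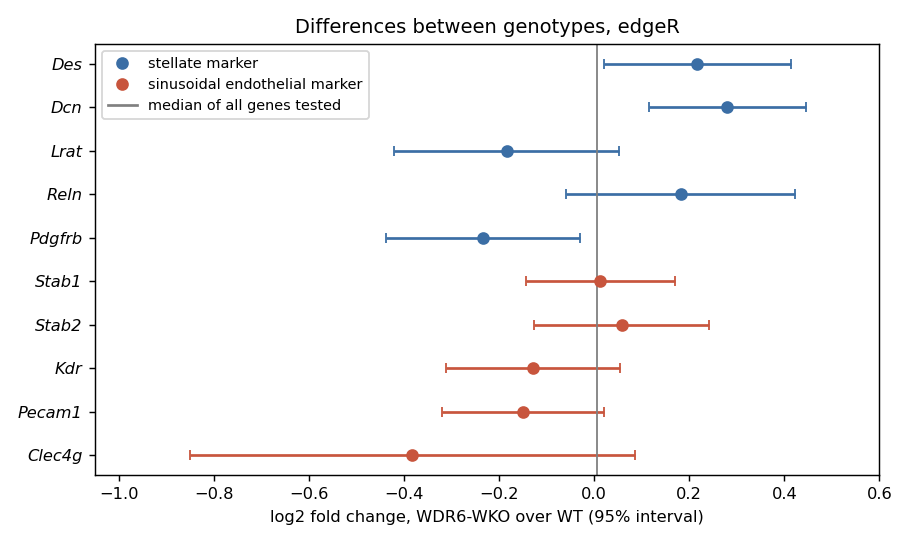
Log2 fold change of WDR6-WKO over WT (horizontal axis) for each marker, with 95% intervals from edgeR, stellate markers in blue and endothelial markers in red. The grey line is the median of all genes tested, 0.0051, and the intervals of *Des*, *Dcn* and *Pdgfrb* do not include 0.

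Summed over the 5 stellate markers, WT libraries held 166 ± 17.6 CPM (s.d., n = 4) and WDR6-WKO libraries 183 ± 6.47 CPM (n = 3). Without *Dcn* the sums were 77.0 ± 8.37 and 75.3 ± 3.14 CPM. The endothelial markers summed to 193 ± 10.7 CPM in WT and 188 ± 17.4 CPM in WDR6-WKO. Within WT, replicates 1 and 2 held the lowest values of *Dcn*, *Lrat*, *Reln* and *Pdgfrb*, but not of *Des*.

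**Figure D3:**
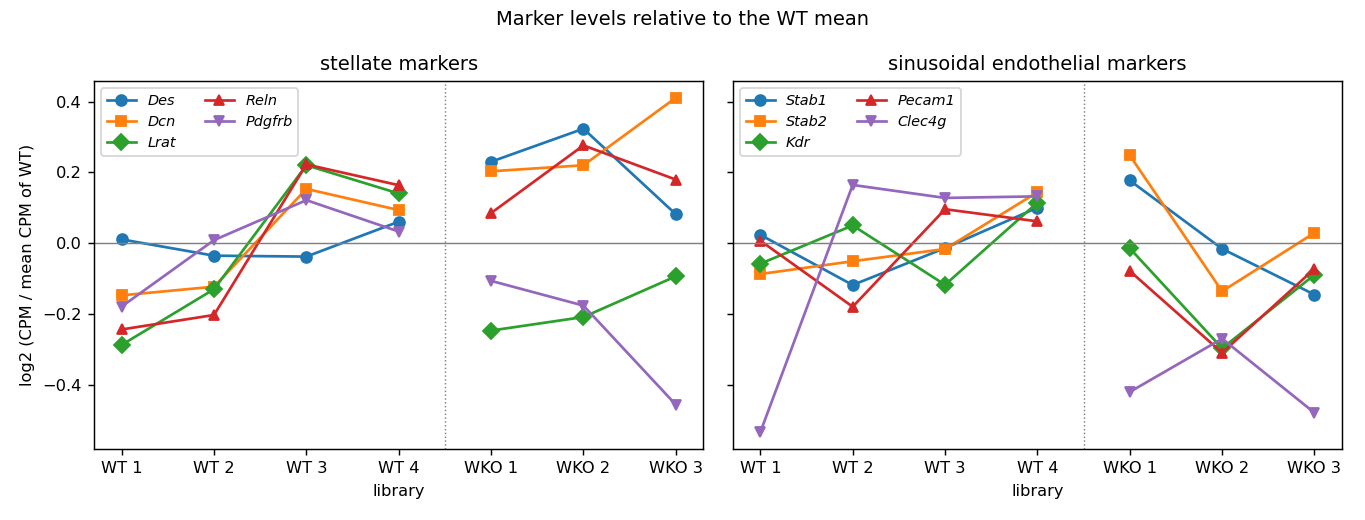
Log2 ratio of each marker to its WT mean (vertical axis) in the 7 libraries, stellate markers on the left and endothelial markers on the right. Lines only join the points of 1 gene, and in WDR6-WKO the stellate markers *Des*, *Dcn* and *Reln* lie above 0 and *Lrat* and *Pdgfrb* below 0.

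Because the values of the stellate markers lay on both sides of 0, ratios of read counts between markers of the same cell type were computed, which do not depend on scaling. These ratios were chosen after the values of the members were seen. The ratio of *Dcn* to *Lrat* was 4.69, 4.28, 4.06 and 4.12 in WT and 5.82, 5.73 and 6.04 in WDR6-WKO. The ratio of *Dcn* to *Pdgfrb* was 3.66, 3.26, 3.66 and 3.73 in WT and 4.43, 4.71 and 6.52 in WDR6-WKO. Groups did not overlap for 5 of the 10 stellate ratios, the others being *Des* to *Pdgfrb* and *Reln* to *Pdgfrb*, with higher values in WDR6-WKO, and *Lrat* to *Reln*, with lower values. Among all pairs of tested genes with reads in every library, 22.8% of ratios did not overlap. Each of the 5 had an exact two-sided permutation p of 0.0286, the smallest possible, and an adjusted p of 0.114 over the 20 ratios, so none passed. Ratios that share a marker are not independent.

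Of the 10 endothelial ratios, that of *Stab2* to *Kdr* did not overlap, at 1.25 to 1.44 in WT and 1.46 to 1.61 in WDR6-WKO (exact permutation p = 0.0571, adjusted 0.190). The ratio of the paralogs *Stab1* and *Stab2* was 2.12 to 2.40 in WT and 1.97 to 2.42 in WDR6-WKO (exact permutation p = 0.629, adjusted 0.773). With each library left out in turn, 5 to 6 stellate and 1 to 4 endothelial ratios did not overlap. The endothelial number was 3 without WT replicate 1 or WDR6-WKO replicate 2, 2 without WT replicate 2 and 4 without WDR6-WKO replicate 3. The difference between the cell types in these counts was not tested.

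**Figure D4:**
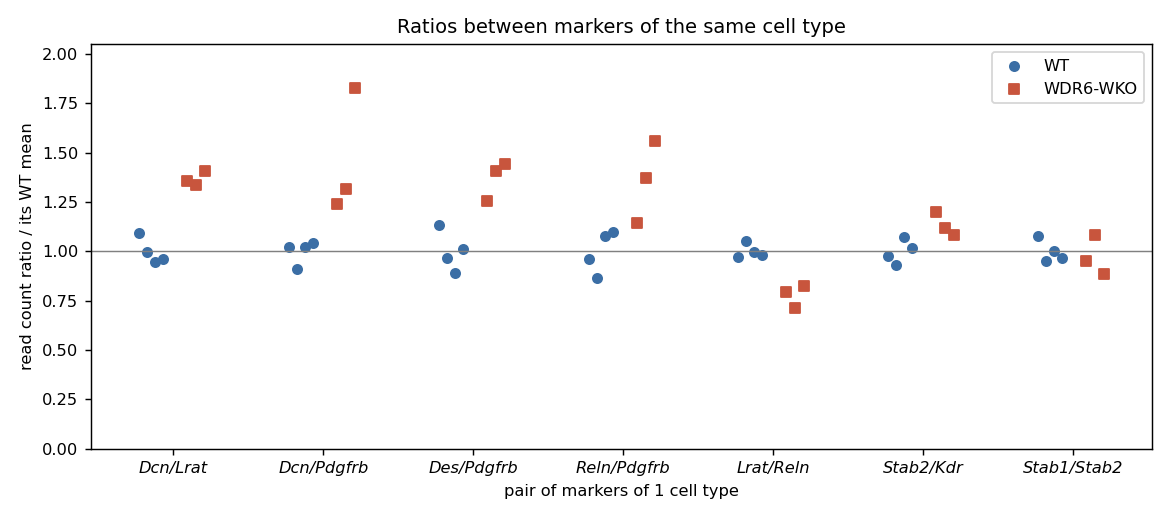
Ratio of read counts between markers of 1 cell type in each WT (blue circles) and WDR6-WKO (red squares) library, divided by the WT mean of that ratio (vertical axis). WT and WDR6-WKO libraries are apart in the first 6 ratios and overlap for *Stab1* to *Stab2*. Of the 20 ratios computed, the figure shows all those whose groups did not overlap, and *Stab1* to *Stab2*.

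Other genes of the same cells were examined in lists, some of which share genes (such as *Pdgfra*, *Lum* and *Cd34*). Beside the counts of each list stand the shares over all genes tested: 12.8% were called in either direction, 6.65% higher and 6.18% lower. Of 18 further stellate markers, 16 were tested, and *Colec11* and *Gfap* were not analysed here. By edgeR's test 2 rose and 3 fell. *Cxcl12*, a chemokine, rose from 85.8 ± 8.14 CPM (s.d., n = 4) to 108 ± 4.03 CPM (n = 3; log2 fold change 0.33, adjusted p = 0.00458). *Tmem56* fell by 0.58 on the log2 scale, *Rgs5*, a regulator of G-protein signalling in pericytes, fell by 0.48 and *Ecm1*, an extracellular matrix protein, fell by 0.27. The other 11 did not pass and the median of the list was 0.19. The number called higher was 1 without WT replicate 2 or 3 or WDR6-WKO replicate 1 or 2, and 4 without WDR6-WKO replicate 3. The summed level of the list was 580 to 602 CPM in WT and 531 to 554 CPM in WDR6-WKO. Most of that sum was *Ecm1*, with means of 229 CPM in WT and 190 CPM in WDR6-WKO, and *Tmem56*, at 122 and 81.6 CPM. Of the 16 log2 fold changes, 12 were above 0 and 4 below, so the sum does not describe the list as a whole.

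Of 12 genes of activated stellate cells and myofibroblasts, 4 rose and none fell by the same test, with a median of 0.14. Over all genes tested, 6.65% were called higher and 6.18% lower. *Acta2*, smooth muscle actin, rose from 62.2 ± 4.28 to 78.4 ± 3.62 CPM (log2 fold change 0.33, adjusted p = 0.00254). *Timp1*, an inhibitor of matrix metalloproteinases, rose by 0.39, and the matrix proteins *Sparc* and *Postn* rose by 0.24 and 0.42. The remaining 8 did not pass, and without WDR6-WKO replicate 1 the number called was 2.

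Of 31 tested further endothelial markers, 1 was called, where 12.8% of all genes tested were called in either direction. *Tek*, the angiopoietin receptor, fell by 0.45 on the log2 scale (adjusted p = 0.0185), from 12.7 ± 1.53 to 9.25 ± 0.737 CPM. The median of the list was -0.041, and the number called lower was 0 without WT replicate 3 or 4 or WDR6-WKO replicate 2, and 3 without WDR6-WKO replicate 1. Summed levels overlapped, at 710 to 799 CPM in WT and 687 to 763 CPM in WDR6-WKO.

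The pathways of the members were read through their ligands, receptors and enzymes. Of 14 tested genes for PDGF and VEGF ligands and receptors, *Flt1*, the VEGF receptor 1, fell by 0.47 (adjusted p = 0.00114) and the co-receptor *Nrp1* fell by 0.27 (adjusted p = 0.00401) on the log2 scale. None was called higher and the median was 0.022. The number called higher was 1 without WT replicate 4 or with the replicate number as a block, and 3 without WDR6-WKO replicate 3. Of 13 tested genes of retinol storage and handling, 2 rose and 1 fell, with a median of -0.065. *Bco1*, a carotene-cleaving enzyme, rose by 0.24 and *Cyp26b1*, which degrades retinoic acid, fell by 0.34 on the log2 scale. In that list, the number called higher was 0 without WDR6-WKO replicate 1 and 1 without WT replicate 2 or 3 or WDR6-WKO replicate 2. The number called lower there was 2 without WDR6-WKO replicate 2 or 3, and also with DESeq2 and limma-voom. With all libraries it was also 2 with median-of-ratios scaling, with 10 counts required in all samples and with the replicate number as a block. Of 7 tested reelin pathway genes, the receptor *Vldlr* rose by 0.63 (adjusted p = 0.00435), from 8.38 ± 1.05 to 13.0 ± 2.10 CPM, and the kinase *Src* rose by 0.25, with a median of 0.086. In the reelin list, 1 was called higher without WDR6-WKO replicate 1 or 2. There, 1 was called lower without WDR6-WKO replicate 3, and also with DESeq2 or median-of-ratios scaling on all libraries.

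Decorin binds TGF-beta, and of 8 tested TGF-beta ligands, receptors and decorin partners the ligand *Tgfb3* rose by 0.54, from 4.65 ± 0.0829 to 6.76 ± 0.508 CPM (adjusted p = 0.00956). The receptors *Tgfbr1* and *Tgfbr2* fell by 0.26 and 0.20 on the log2 scale, and the median was 0.061. The number called higher was 0 without WDR6-WKO replicate 1 and 2 without WDR6-WKO replicate 3. It was also 2 with library sizes alone and with the replicate number as a block. The number called lower was 1 without WT replicate 3 or 4 or WDR6-WKO replicate 1 or 2.

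Markers of other liver cells moved with the genotype, and their part in the results on the 10 members was not tested. Of 15 Kupffer cell markers, 5 rose and none fell by edgeR's test, with a median of 0.25 and 14 of the 15 values above 0. Over all genes tested, 6.65% were called higher and 6.18% lower. *Lyz2*, the macrophage lysozyme, rose by 0.64, the Fc receptor genes *Fcer1g* and *Fcgr1* rose by 0.66 and 0.75, and *C1qc*, a complement component, rose by 0.48. The summed level of the list was 937 to 1043 CPM in WT and 1220, 1298 and 1091 CPM in WDR6-WKO, and 9 were called higher without WDR6-WKO replicate 3. Of 6 tested cholangiocyte markers, *Spp1* rose by 0.31 and *Sox9* by 0.20, and the sum, most of it *Spp1*, was 3099 to 3394 CPM in WT and 3742 to 4337 CPM in WDR6-WKO. The number of cholangiocyte markers called higher was 1 without WT replicate 1, 2 or 3 or WDR6-WKO replicate 1 or 2. Of 12 lymphocyte markers, *Ptprc* alone was tested, at 12.9 to 16.0 CPM in WT and 14.2 to 15.2 CPM in WDR6-WKO.

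Of 11 mesothelial, portal fibroblast and smooth muscle markers, 5 were tested. *Fbln2*, a matrix protein of fibroblasts, fell by 0.64 on the log2 scale and *Msln*, mesothelin, fell by 0.40. The other 3 did not pass, 2 of the 5 values were above 0 and the median was -0.074. The sum, most of it *Fbln2*, was 299 to 343 CPM in WT and 199 to 228 CPM in WDR6-WKO, and without WT replicate 2 the number called lower was 1. Of 12 hepatocyte markers, 5 fell and none rose, with a median of -0.31, among them *Cps1* of the urea cycle (-0.69), *Apoa1* (-0.69), *Fgb* (-0.45) and *Hnf4a* (-0.27). Over all genes tested, 6.18% were called lower. The sum of the hepatocyte markers was 16418 to 19468 CPM in WT, where replicate 1 was lowest, and 14790 to 16908 CPM in WDR6-WKO.

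**Figure D5:**
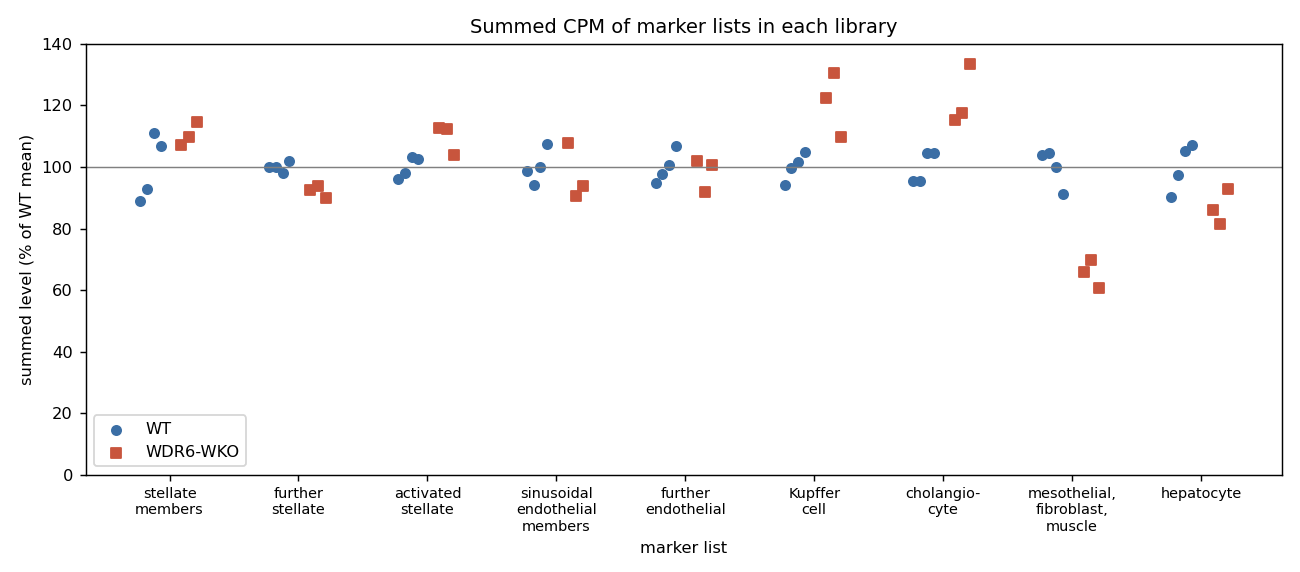
Summed CPM of lists of cell type markers as a percent of its WT mean (vertical axis, from 0) in each WT (blue circles) and WDR6-WKO (red squares) library. The groups overlap for the stellate and the sinusoidal endothelial members and are apart for the further stellate, activated stellate, Kupffer cell, cholangiocyte, and mesothelial, fibroblast and muscle lists. A sum mostly follows the genes with the highest levels in its list.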

How the data were processed

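Hepatocyte RNA was sequenced in 4 WT and 3 WDR6-WKO libraries. The authors mapped the reads to mouse build GRCm38/mm10 with Bowtie2 (2.2.3 in the submitters' processing notes) and deposited raw read counts for each gene symbol. The counting tool, annotation and strand setting are not given in the sources used here. The smallest row total is 50.

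The deposited counts were scaled to CPM and tested in edgeR 4.0.16 (R 4.3.3; TMM scaling, filterByExpr, robust quasi-likelihood test, Benjamini-Hochberg adjustment over 14779 genes). The biological coefficient of variation was 7.40%. Exact two-sided permutation tests compared mean log2 CPM over all 35 splits. No library was a copy of another of its genotype within sampling noise. Deviations of same-numbered libraries of the groups correlated only weakly and the labels name no pairs, so no block was used. Exon lengths, positions and overlaps came from the GENCODE annotation of GRCm38.

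Members and gene lists were chosen with earlier results of these data known. All members were named, with up to 4 called genes per further list by smallest p (2 by level where none passed). The 3 genes most like the member with the smallest p were named too. *Alb* was named as a reference level, and 1 gene that the rule names is not reported here. Alternatives were DESeq2 1.42.0, limma-voom (limma 3.58.1), the replicate block, leaving out each replicate, scaling by median-of-ratios factors or by library size only, omitting the filter or requiring 10 counts in all samples, and the study's thresholds for differentially expressed genes (absolute log2 fold change of 0.35, unadjusted p under 0.05). The script was tested on simulated data.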

Additional observations from a re-analysis of the deposited data

Results flagged for a closer look

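*Clec4g* in WT replicate 1 lay far from the other WT libraries, at 1.61 CPM (32 counts) against 2.55 to 2.62 CPM. The gap to the nearest library was 0.935 of the range of the 4 libraries, where chance flags about 1 in 20 groups. No other member had such a library in WT, and the WDR6-WKO group of 3 was not examined in this way.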

How the results depend on the processing

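No member was called lower under any alternative that was run. The number called higher stayed at 1 with each other tool, scaling and filter and was 0 under the thresholds of the study. It ranged from 0 to 1 with each replicate left out, and the 1 called without WDR6-WKO replicate 3 was *Des*, not *Dcn*. With each replicate left out, the log2 fold change of *Stab1* ranged from -0.083 to 0.083, below 0 without WT replicate 2 (-0.024) and WDR6-WKO replicate 1, and that of *Stab2* from -0.057 to 0.15, below 0 without WDR6-WKO replicate 1, and the cause was not tested. Of all genes, 983 were called higher and 914 lower, against 1212 and 696 with library sizes alone, 1011 and 998 with DESeq2, and 949 and 583 under the thresholds of the study. With each replicate left out these counts ranged from 570 to 2150 and from 462 to 2083, both highest without WDR6-WKO replicate 3.

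With the replicate number as a block, 1 member was called higher and 0 lower, and 945 and 817 of all genes. The deviations of same-numbered libraries correlated at 0.092, 0.0417 and 0.0746, within the range of -0.21 to 0.18 of the other pairs. These values cannot show whether same-numbered samples share more than a number, and the labels do not say. *Clec4g*, with 30 to 51 counts per library, is the member with the fewest reads and the widest interval.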

Other observations

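The 3 genes whose profile over the 7 libraries was most like that of *Dcn*, by the root mean square difference of log2 CPM centred on the WT mean, were *B430306N03Rik* (0.0481), *Spp1* (0.0484), which encodes osteopontin, and *Wls* (0.0563), which carries WNT proteins to the cell surface. Their mean levels were 19.2, 2980 and 18.8 CPM in WT and 23.5, 3693 and 22.8 CPM in WDR6-WKO (adjusted p = 0.0356, 0.00372 and 0.0389, edgeR). These genes were picked by a profile that includes the difference between genotypes, so higher levels in WDR6-WKO follow from the choice and are no further support.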
